A study of Mus musculus with 21 samples.

Results

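The genes described here encode interleukin-2 (IL-2), the chains of its receptor and the receptors that share the common gamma chain. They were taken by symbol from the deposited matrix of read counts, 8 rows of 49510: the cytokine Il2 and the receptor chains Il2ra, Il2rb, Il2rg, Il7r, Il4ra, Il21r and Il15ra. All 8 passed the filter on low counts, along with 14996 genes in all. RNA had been sequenced from T cells of Foxp3-GFP mice, 8 weeks old, in which a green fluorescent protein reports Foxp3, the transcription factor that defines regulatory T cells (Tregs). Every mouse was taken 7 days after myocardial infarction (MI), and no group without infarction was analysed here. The 7 groups hold 3 libraries each, 21 in all. There are 4 groups of Tregs, from injured heart, the mediastinal lymph node (MLN), into which the heart drains, a non-draining lymph node (NDLN) and spleen, and 3 groups of conventional T cells (Tconvs), from heart, NDLN and spleen. Cells were enriched with magnetic beads and then sorted by flow cytometry, so the cell type rests on the sort and on the Foxp3 reporter, and no MLN Tconv library was analysed here. The labels do not say whether the 3 libraries of a group came from separate animals or from pools.

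IL-2 is made mainly by activated conventional T cells and is taken up by Tregs, which depend on it for survival and for keeping Foxp3 switched on. Its receptor joins an alpha chain (Il2ra, CD25), which raises the affinity, to a beta chain (Il2rb, CD122) and the common gamma chain (Il2rg, CD132), and the last 2 chains carry the signal through JAK1 and JAK3 to STAT5. The gamma chain serves in the same way in the receptors for IL-7, IL-4, IL-21 and IL-15, where Il7r, Il4ra, Il21r and Il15ra give the specificity.

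The genes lie at 6 places in the mouse genome (GRCm38, GENCODE M21). Il2 is on chromosome 3, from 37120523 to 37125959 on the minus strand. Il2ra (chromosome 2, 11642807 to 11693193, plus strand) ends 12.1 kb before Il15ra (11705290 to 11734317, plus strand), its closest relative in structure. Il4ra (chromosome 7, 125552120 to 125579474, plus strand) likewise ends 24 kb before Il21r (125603429 to 125633570, plus strand). Il2rb (78479256 to 78495271) and Il7r (9505788 to 9530176) lie far apart on the minus strand of chromosome 15, and Il2rg is on the minus strand of chromosome X (101264378 to 101268255). All 8 are protein-coding genes. Il2 overlaps Adad1 on the other strand, Il2ra overlaps Gm37881, Il2rg overlaps Gm20489 on the same strand and Il4ra overlaps the antisense gene Gm44876, and the strand setting of the counting is not given in the sources used here, so reads in the shared stretches are uncertain.

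Promoters are shown for Il2 and Il2ra, whose levels had opposite patterns between Tregs and Tconvs, and for the neighbours Il4ra and Il21r, which both had their highest means in heart Tregs, MLN Tregs and heart Tconvs. Each is the 250 bases before the RefSeq start (GRCm38.p6), 5′ to 3′ on the gene's strand, at chr3:37125955-37126204 (minus), chr2:11642542-11642791 (plus), chr7:125552021-125552270 (plus) and chr7:125603179-125603428 (plus). RefSeq windows were found for 7 of the 8 genes, Il2rb being the exception. Capitals mark the matches, on either strand, to the core letters of NFAT (GGAAA), AP-1 (TGANTCA), the STAT element GAS (TTCNNNGAA), a forkhead site (TAAACA) and the TATA box (TATAAA).
Il2: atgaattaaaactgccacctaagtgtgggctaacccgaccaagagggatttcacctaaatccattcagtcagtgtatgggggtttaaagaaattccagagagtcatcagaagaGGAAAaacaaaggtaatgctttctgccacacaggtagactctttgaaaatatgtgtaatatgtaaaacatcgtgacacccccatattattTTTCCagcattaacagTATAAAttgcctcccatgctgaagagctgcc
Il2ra: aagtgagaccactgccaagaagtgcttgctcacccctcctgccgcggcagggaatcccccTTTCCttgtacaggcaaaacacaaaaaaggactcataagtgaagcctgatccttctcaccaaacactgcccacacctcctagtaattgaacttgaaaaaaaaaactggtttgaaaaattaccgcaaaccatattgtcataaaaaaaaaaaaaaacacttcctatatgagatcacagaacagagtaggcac
Il4ra: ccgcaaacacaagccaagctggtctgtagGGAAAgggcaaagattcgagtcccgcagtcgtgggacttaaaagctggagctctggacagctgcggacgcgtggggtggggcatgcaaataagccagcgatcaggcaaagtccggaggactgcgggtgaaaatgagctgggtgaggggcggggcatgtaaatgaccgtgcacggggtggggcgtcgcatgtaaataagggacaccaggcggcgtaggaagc
Il21r: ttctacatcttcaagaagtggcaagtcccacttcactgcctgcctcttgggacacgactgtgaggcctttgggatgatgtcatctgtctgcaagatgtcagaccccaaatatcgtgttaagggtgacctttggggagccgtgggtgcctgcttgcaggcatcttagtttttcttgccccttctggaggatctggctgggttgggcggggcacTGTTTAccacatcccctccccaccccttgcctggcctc
The Il2 window held 2 NFAT cores and 1 TATA box, the Il2ra and Il4ra windows 1 NFAT core each and the Il21r window 1 forkhead core. The Il7r window held 1 NFAT core and 1 GAS element. These letters are common: of 32851 mouse promoter windows of the same length, 55.6% held an NFAT core, 6.75% an AP-1 site, 7.02% a GAS element, 12% a forkhead core and 12.4% a TATA box, so a match describes the sequence and marks no site that is in use.

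Library totals ran between 14515387 and 28323649 counts. Foxp3 stood at 39.5 to 248 CPM (the counts per library brought to a common size, with TMM factors) in the 12 Treg libraries and at 0 to 0.164 CPM in the 9 Tconv libraries, and the summed T cell markers (Cd3e, Cd3d, Cd3g, Cd4, Cd28) at 2936 to 5665 CPM in all 21. Summed B cell markers reached 490 CPM in lymphoid Tregs and 47.5 CPM in heart Tregs and Tconvs, and macrophage markers 106 CPM. A dendritic cell list (Flt3, Itgax, Zbtb46, Xcr1, Siglech, H2-Aa, Cd74) summed to 0.204 to 1794 CPM, with the highest in spleen Tregs. Itgax was at 0 in all groups. In spleen Tregs Flt3, Xcr1 and Siglech were at 0 as well, so the sum there came from Zbtb46, H2-Aa and Cd74 only. In 5 libraries, heart Treg replicate 1, MLN Treg replicates 1 and 2 and heart Tconv replicates 1 and 2, mitochondrial ribosomal RNA took 0.0568% to 0.102% of counts, against 0.954% to 12.3% in the other 16. Each called result is therefore also given over those 16 libraries, which leave 1 heart Tconv library, 1 MLN Treg library and 2 heart Treg libraries. The spread was wide, with a common dispersion of 2.19 across genes. Group levels are means of CPM ± SD over 3 libraries, and differences are log2 fold changes with their standard error (SE). A gene was called at an adjusted p under 0.05 in edgeR's quasi-likelihood test, adjusted over all 14996 genes.

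**Figure D1:**
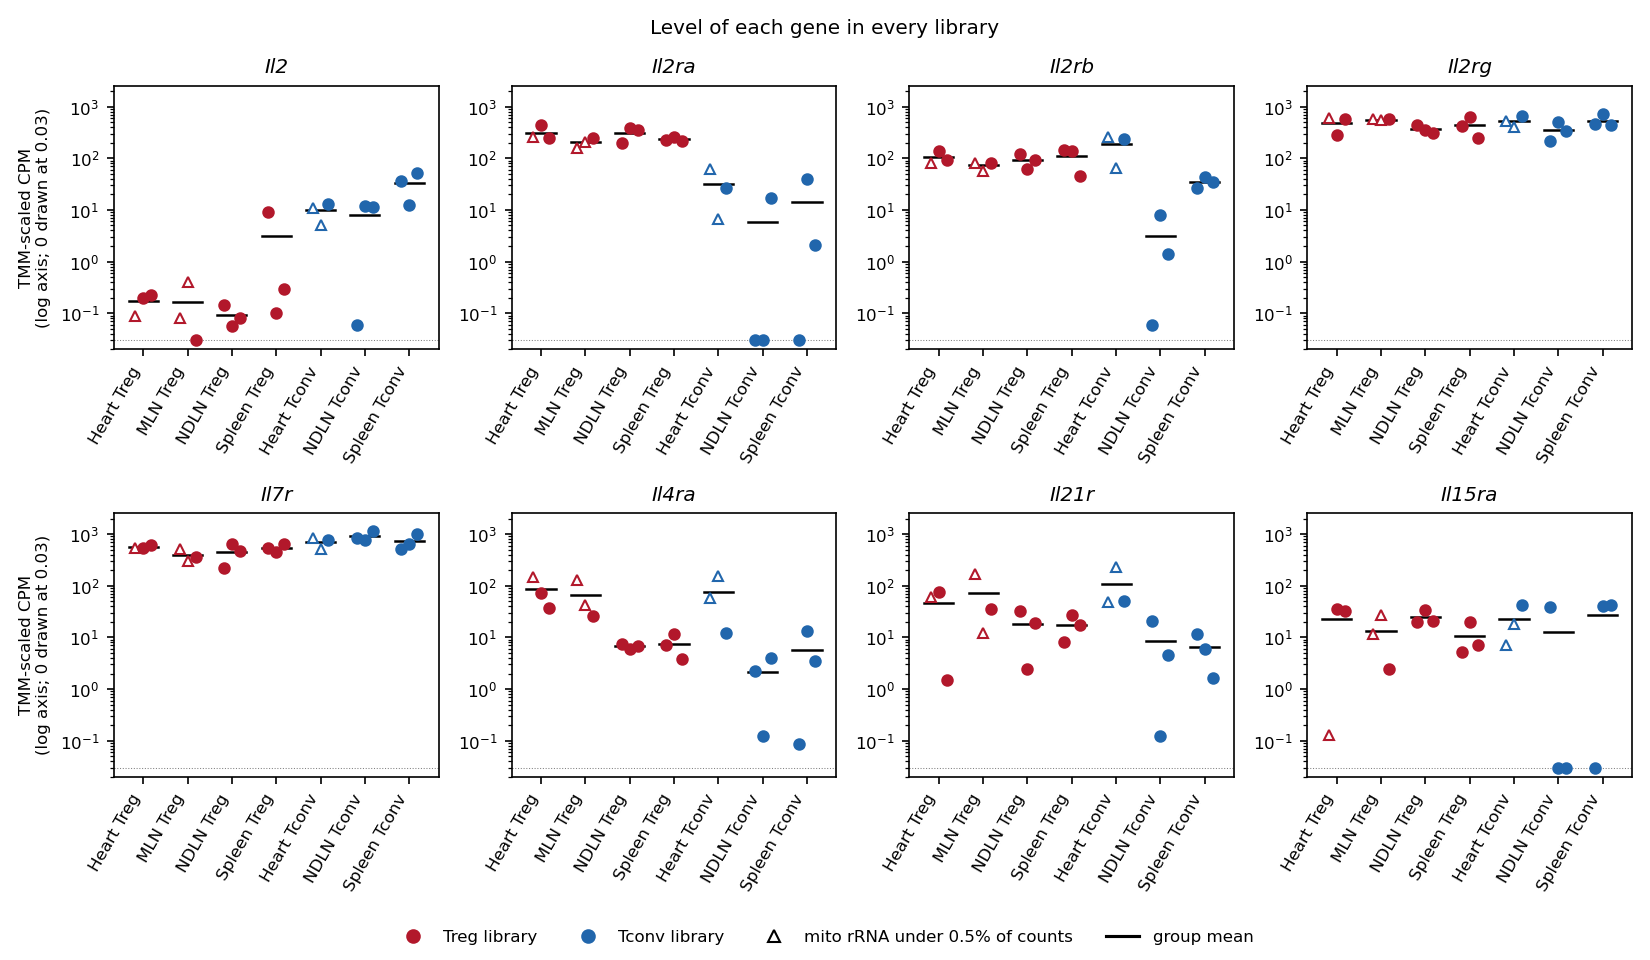
TMM-scaled CPM of the 8 genes on log axes, 1 point per library, by group; the bar is the mean of 3 libraries, triangles are the 5 libraries with mitochondrial rRNA under 0.5% of counts, and 0 is drawn at 0.03. Il2ra is at 159.6 CPM or more in every Treg library and at 63.2 CPM or less in every Tconv library, Il2 runs the other way in all but 2 libraries, and Il2rg and Il7r lie in narrow bands.

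Il2, the cytokine, was nearly absent from Tregs and present in Tconvs. Heart Tregs had 0.0881, 0.198 and 0.228 CPM and MLN Tregs 0.082, 0.405 and 0 CPM. NDLN Tregs had 0.143, 0.058 and 0.0799 CPM, and spleen Tregs 9.11, 0.101 and 0.292 CPM. Apart from spleen Treg replicate 1, with 200 counts, each Treg library held 0 to 8 Il2 counts. Heart Tconvs had 11.1, 5.21 and 13.2 CPM, NDLN Tconvs 0.0586, 12.1 and 11.6 CPM and spleen Tconvs 36.5, 12.5 and 52.2 CPM. NDLN Tconv replicate 1, with a single count, was thus as low as the Tregs, while the other 8 Tconv libraries lay above the remaining 11 Treg libraries. Averaged over heart, spleen and NDLN, Il2 was lower in Tregs than in Tconvs by 36.1-fold (log2 fold change −5.17, SE 1.23, adjusted p = 0.032 in edgeR, 2.02e-07 in DESeq2 and 0.00739 in limma-voom). EdgeR called only Il2 of the 8 genes in that comparison, among 1.81% of all genes tested, whereas DESeq2 called 3 (Il2, Il2ra and Il2rb, among 12.3%) and limma-voom 2 (Il2 and Il2ra, among 3.34%).

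The Il2 call was close to the threshold. Over the 16 libraries with more rRNA the log2 fold change was −5.21 and the edgeR adjusted p 0.227. The call held without spleen Treg replicate 1 (log2 fold change −6.50, adjusted p = 0.0223), without spleen Tconv replicate 2 (0.0471) and without NDLN Tconv replicate 1, 2 or 3 (0.0236, 0.0465 and 0.0472), and was lost without any 1 of the other 13 libraries, with edgeR adjusted p-values of 0.0554 to 0.103. Within tissues, Il2 did not pass: the log2 fold change of Tregs over Tconvs was −5.80 (SE 2.18) in heart, −6.31 (SE 2.24) in NDLN and −3.41 (SE 1.95) in spleen, with adjusted p-values of 0.601, 0.393 and 0.647 in edgeR. The libraries overlapped in NDLN and not in heart or spleen, where 12.2% and 12.8% of all genes tested did not overlap. Without spleen Treg replicate 1 the spleen value was −7.39. DESeq2 called Il2 in heart (0.0033, among 6.54% of genes) and NDLN (0.000723, among 11% of genes). In these sorted bulk samples, fewer cells of a type and less RNA per cell cannot be told apart.

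Il2ra, the alpha chain that gives the IL-2 receptor its high affinity and a standard marker of Tregs, had the opposite pattern, with every Treg library above every Tconv library. The share of all genes tested with such a separation over all libraries was not counted. Heart Tregs had 252, 443 and 249 CPM and NDLN Tregs 195, 388 and 350 CPM. Spleen Tregs had 228, 263 and 215 CPM and MLN Tregs 160, 208 and 242 CPM. Tregs of all 4 tissues thus overlapped one another, with means between 203 ± 41.3 CPM in MLN and 315 ± 111 CPM in heart (SD, n = 3). Heart Tconvs had 63.2, 6.61 and 26.1 CPM, NDLN Tconvs 0, 0 and 17.3 CPM and spleen Tconvs 0, 40.4 and 2.07 CPM. No Tconv library reached the lowest Treg library, and 3 Tconv libraries had 0 counts, which at their depth allows up to 0.259 CPM in NDLN and 0.173 CPM in spleen (3 counts in the shallowest library of the group, counting error only). The heart Tconv mean of 32 ± 28.8 CPM stood above the spleen mean of 14.1 ± 22.7 and the NDLN mean of 5.76 ± 9.97 CPM, but their libraries overlapped. Between heart and NDLN Tconvs edgeR called Il2ra only without NDLN Tconv replicate 3 (0.0338, against 0.463 with it) and without the filter on low counts (0.0125).

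The difference in Il2ra did not pass the edgeR threshold. Averaged over the 3 tissues, Il2ra stood 20.7-fold higher in Tregs (log2 fold change 4.37, SE 1.13, adjusted p = 0.0611), while DESeq2 (0.000332) and limma-voom (0.000715) called it. It was called without NDLN Tconv replicate 3 (log2 fold change 7.71, edgeR adjusted p = 0.00318) and without spleen Tconv replicate 2 (5.64, 0.0388), the Tconv libraries with the most Il2ra in their tissues, and in none of the other 16 repeats that left out a library. The 7.71 rests in part on 0 counts in the other 2 NDLN Tconv libraries and is no measure of size. Without the filter on low counts edgeR called it too. Within tissues the log2 fold change was 3.30 (SE 1.85) in heart, 5.77 (SE 2.09) in NDLN and 4.05 (SE 1.92) in spleen. None passed, with edgeR adjusted p-values of 0.626, 0.414 and 0.62, although Treg and Tconv libraries did not overlap in any of the 3 tissues. In NDLN, DESeq2 (0.0131) and limma-voom (0.0141) called Il2ra, and edgeR did so without NDLN Tconv replicate 3 (0.0222), the 1 NDLN Tconv library with Il2ra counts, with a fitted log2 fold change of 15.8 that rests on 0 counts in the other 2 and is no measure of size. Libraries that do not overlap are frequent here: 12.2% of the genes tested in heart, 12.1% in NDLN and 12.8% in spleen, in either direction.

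**Figure D2:**
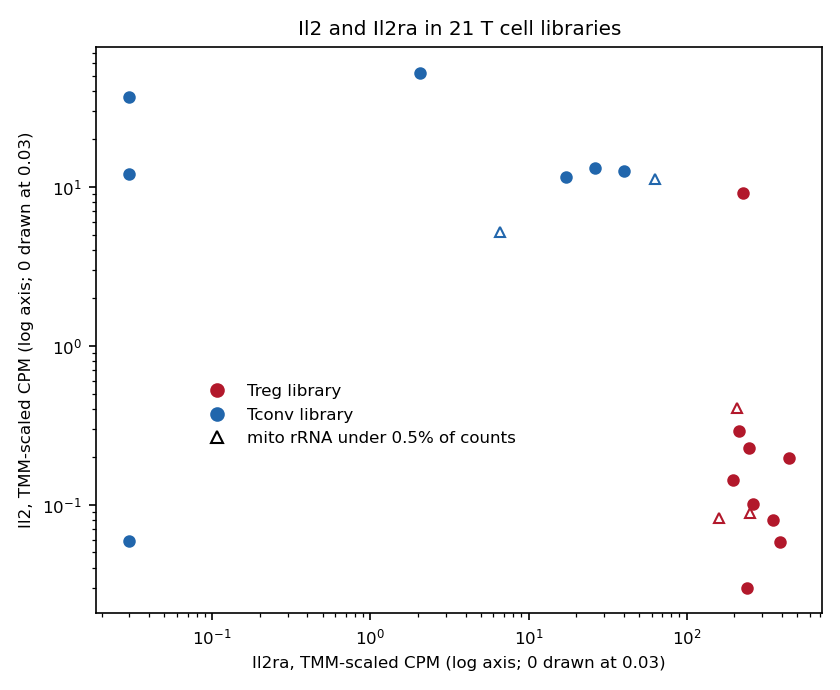
Il2 (vertical) against Il2ra (horizontal) in TMM-scaled CPM on log axes, 1 point per library, with 0 drawn at 0.03; triangles are libraries with mitochondrial rRNA under 0.5%. Treg libraries sit at the lower right and Tconv libraries at the upper left; spleen Treg replicate 1 has high Il2ra with 9.11 CPM of Il2, and NDLN Tconv replicate 1 is low in both.

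Il2rb, the signalling beta chain that IL-2 shares with IL-15, was even among Tregs and differed by tissue among Tconvs. Heart Tregs had 81.2, 141 and 93.4 CPM, MLN Tregs 82.2, 57.3 and 80.3 CPM, NDLN Tregs 120, 61.2 and 92.6 CPM and spleen Tregs 142, 139 and 45.1 CPM. Heart Tconvs had 261, 66 and 232 CPM, NDLN Tconvs 0.0586, 7.98 and 1.38 CPM and spleen Tconvs 26.2, 42.6 and 34.2 CPM. Heart Tconvs therefore overlapped the Tregs and had the highest mean of the 7 groups, 186 ± 105 CPM, whereas every NDLN Tconv library lay below every other library in the series. Spleen Tconvs lay between them without overlapping NDLN or heart Tconvs. Libraries without overlap made up 24.3% of all genes tested between heart and spleen Tconvs and 24.7% between heart and NDLN Tconvs. No such share was counted for spleen against NDLN Tconvs or for NDLN Tconvs against all other libraries.

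In NDLN, Il2rb was 28.8-fold higher in Tregs than in Tconvs (log2 fold change 4.85, SE 0.99, adjusted p = 0.0362 in edgeR and 4.5e-07 in DESeq2, against 0.121 in limma-voom). It was the 1 gene of the 8 called in NDLN, where edgeR called 0.3% of genes tested and limma-voom 1.61%. The call was lost without NDLN Treg replicate 1, 2 or 3 (edgeR adjusted p = 0.0716, 0.0523 and 0.0613) and without NDLN Tconv replicate 3 (0.101). Without NDLN Tconv replicate 1 or 2 it held, at 0.0282 and 0.00412, and without the second of these the log2 fold change was 7.02. Over the 16 libraries with more rRNA, which hold all 6 NDLN libraries compared, the log2 fold change was 4.83 and the adjusted p 0.116. In heart (log2 fold change −0.83, SE 0.84, edgeR adjusted p = 0.962) and in spleen (1.66, SE 0.86, 0.62) Il2rb did not pass, and averaged over the 3 tissues it stood 3.72-fold higher in Tregs with an edgeR adjusted p of 0.059. The averaged difference was called without NDLN Tconv replicate 1 (0.0272) or 2 (0.00322, with a log2 fold change of 2.62 against 1.90). The Treg to Tconv difference of Il2rb in heart minus that in NDLN was −5.67 on the log2 scale (SE 1.27), with an edgeR adjusted p of 0.224 (0.0125 without NDLN Tconv replicate 2) and a DESeq2 adjusted p of 9.22e-05, DESeq2 calling 9.17% of genes. That in heart minus that in spleen was −2.49 (SE 1.21, edgeR adjusted p = 0.67). Over all genes tested, 0.0133% were called in each of these tests of a difference between tissues.

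Between Tconvs of different tissues, Il2rb was called whichever library was left out. It was 58.8-fold higher in heart than in NDLN Tconvs (log2 fold change 5.88, SE 1.04, adjusted p = 0.00641 in edgeR, 2.61e-10 in DESeq2 and 0.0282 in limma-voom), in a comparison in which edgeR called 2.88% of all genes, DESeq2 18% and limma-voom 6.84%. In the 6 repeats that left out a library the edgeR adjusted p was 0.00127 to 0.0234, and the log2 fold change was 8.05 without NDLN Tconv replicate 2. With only the groups compared in the fit the call was lost (0.108). Over the 16 libraries with more rRNA, with a single heart Tconv library, whose spread is taken from the other groups, the log2 fold change was 6.19 with an adjusted p of 0.0544. Against spleen Tconvs, heart Tconvs stood 5.42-fold higher without passing (log2 fold change 2.44, SE 0.89, edgeR adjusted p = 0.249). A list of CD8 T cell and NK cell markers, cells that carry much Il2rb, differed between the tissues. Its 7 genes summed to 1233 to 1813 CPM in heart Tconvs, against 75.2 to 90.5 CPM in NDLN Tconvs and 404 to 2049 CPM in spleen Tconvs. The highest spleen Tconv library thus lay above every heart Tconv library, unlike for Il2rb. Heart Tregs reached 1390 CPM, with Cd8a and Prf1 at 0. The NK cell receptor gene Ncr1 was at 0 counts in Tconvs of all 3 tissues and Cd8a at 0 in NDLN Tconvs. The part of these markers in the Il2rb difference was not tested.

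Il2rg, the common gamma chain, was the steadiest of the 8. Its level ran from 216 to 705 CPM over all 21 libraries, a 3.27-fold range, and the groups next to each other in the order of means all overlapped. Means were 486 ± 173, 557 ± 16.4, 369 ± 68.9 and 433 ± 193 CPM in heart, MLN, NDLN and spleen Tregs, and 533 ± 133, 352 ± 142 and 530 ± 152 CPM in heart, NDLN and spleen Tconvs. Averaged over the 3 tissues, the log2 fold change of Tregs over Tconvs was −0.12 (SE 0.21, edgeR adjusted p = 1), with an interval of ± 2 SE between −0.54 and 0.30, so a difference of the size seen for Il2ra or Il2rb lies outside it.

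Il7r, the alpha chain of the receptor for IL-7, a survival factor of resting T cells, was high in every group, with means in each Treg group below those of each Tconv group. Heart Tregs had 539, 527 and 625 CPM, MLN Tregs 519, 297 and 368 CPM, NDLN Tregs 224, 645 and 480 CPM and spleen Tregs 531, 452 and 651 CPM. Heart Tconvs had 824, 516 and 751 CPM, NDLN Tconvs 829, 760 and 1170 CPM and spleen Tconvs 519, 653 and 1010 CPM. The libraries did not overlap in NDLN, as was so for 12.1% of all genes tested, and overlapped in heart and spleen. The log2 fold change of Tregs over Tconvs was −0.59 (SE 0.20, edgeR adjusted p = 0.149) on average, −1.03 (SE 0.35, 0.345) in NDLN, −0.31 (SE 0.35, 0.992) in heart and −0.42 (SE 0.35, 0.948) in spleen. None of these passed in edgeR, and DESeq2 called the NDLN difference (0.0294).

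High Il2ra with low Il7r is the pair of surface markers by which Tregs are often sorted. The number of Il2ra reads per 100 Il7r reads (0.5 added to each count) was 46.8, 84.2 and 39.7 in heart Tregs, 30.7, 70.1 and 65.8 in MLN Tregs, 87, 60.2 and 73 in NDLN Tregs and 42.9, 58.2 and 33 in spleen Tregs. It was 7.68, 1.28 and 3.48 in heart Tconvs, 0.00353, 0.00275 and 1.48 in NDLN Tconvs and 0.00417, 6.18 and 0.208 in spleen Tconvs. The 12 Treg libraries all lay above the 9 Tconv libraries, and the ratio in Tregs of the 4 tissues overlapped.

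Per kilobase of merged exons, which lets genes be compared, Il2rg and Il7r led in heart Tregs with 203 and 121 CPM per kb, and Il2ra (55.1), Il2rb (24.5), Il4ra (14.2), Il21r (14.1), Il15ra (5.07) and Il2 (0.15) followed. In NDLN Tconvs, Il7r and Il2rg again led with 197 and 147 CPM per kb, but Il2 (6.92) came next, above Il15ra (2.86), Il21r (2.57), Il2ra (1.01), Il2rb (0.732) and Il4ra (0.359). This is an order of means and did not hold in each library. In NDLN Tconv replicate 1, the only one of the group with Il15ra counts, Il15ra stood at 8.58 and Il2 at 0.0512 CPM per kb. Among the genes of the IL-2 receptor, NDLN Tconvs thus had the gamma chain at a level like that of heart Tregs and little RNA for the alpha and beta chains.

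Il4ra, the alpha chain of the IL-4 receptor, which also serves the receptor for IL-13, had its higher levels in libraries of heart and MLN. Heart Tregs had 145, 73.4 and 36.8 CPM and MLN Tregs 130, 41.9 and 25.5 CPM, against 7.53, 6.09 and 6.71 CPM in NDLN Tregs and 7.15, 11.8 and 3.8 CPM in spleen Tregs. Heart and MLN Tregs did not overlap NDLN or spleen Tregs, as was so for 15.5% of genes between heart and spleen Tregs, 19.6% between heart and NDLN Tregs and 16.6% between MLN and NDLN Tregs. The share between MLN and spleen Tregs was not counted. Heart Tconvs had 56.9, 154 and 12.4 CPM, against 2.29, 0.125 and 4.06 CPM in NDLN Tconvs and 0.0866, 13.6 and 3.57 CPM in spleen Tconvs. The highest library in heart Tregs, MLN Tregs and heart Tconvs was in each case one of the 5 with little mitochondrial rRNA.

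None of these Il4ra differences was called by edgeR with all libraries and the filter on low counts. Heart Tregs stood 5.66-fold above the mean of spleen, NDLN and MLN Tregs (log2 fold change 2.50, SE 0.90, adjusted p = 0.196), a comparison in which 0.967% of genes were called. They stood above NDLN Tregs by 3.65 (SE 1.34, edgeR adjusted p = 0.264, 0.533% of genes called) and above spleen Tregs by 3.48 (SE 1.33, 0.413, 0.147%). MLN Tregs stood above NDLN Tregs by 3.28 (SE 1.32, edgeR adjusted p = 0.501, 0.00667%). DESeq2 called the last 3 (0.0107, 0.0242 and 0.0448, among 12.2%, 9.02% and 6.28% of genes) and limma-voom called none of the 4. Heart Tconvs stood above NDLN Tconvs by 5.12 (SE 1.44, edgeR adjusted p = 0.0589, 0.0445 without heart Tconv replicate 3 and 0.00679 without the filter, DESeq2 0.000131) and above spleen Tconvs by 3.70 (SE 1.34, edgeR adjusted p = 0.249, DESeq2 0.0134, where edgeR called 0.473% of genes and DESeq2 9.8%). Over the 16 libraries with more rRNA the log2 fold change of heart Tregs over the lymphoid mean was 2.33 (adjusted p = 0.672), and that of heart over NDLN Tconvs was 2.51 (0.765). Summed marker lists also differed between groups. The 6 genes of an ILC2 and mast cell list (Gata3, Il1rl1, Kit, Fcer1a, Cpa3, Areg) summed to 240 to 675 CPM in heart Tregs, 40.4 to 262 CPM in lymphoid Tregs and 78.6 to 161 CPM in heart Tconvs. Fcer1a was at 0 in all of these groups and Kit in the lymphoid Tregs, while Il1rl1 and Gata3 averaged 102 and 64 CPM in heart Tregs. The 7 of a fibroblast list (Col1a1, Col1a2, Col3a1, Pdgfra, Dcn, Sparc, Postn) summed to 128 to 516 CPM in heart Tregs, with Pdgfra at 0, and 0 to 5.36 CPM in lymphoid Tregs. A sum does not tell which cells, or which gene of a list, gave the counts. The part of these lists in the Il4ra levels was not tested.

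Il21r, the receptor chain for IL-21, was more erratic within groups. Heart Tregs had 61.7, 77 and 1.48 CPM, MLN Tregs 170, 12 and 35.9 CPM, NDLN Tregs 32.5, 2.5 and 18.7 CPM and spleen Tregs 8.16, 27 and 17.7 CPM. The groups of Tregs all overlapped. Heart Tconvs had 47.8, 234 and 49.7 CPM, against 21.1, 0.125 and 4.49 CPM in NDLN Tconvs and 11.9, 6.06 and 1.61 CPM in spleen Tconvs, without overlap between heart and either lymphoid tissue. The log2 fold change of heart over spleen Tconvs was 4.08 (SE 1.54, adjusted p = 0.277 in edgeR and 0.0168 in DESeq2) and that over NDLN Tconvs 3.69 (SE 1.51, 0.214 in edgeR and 0.0251 in DESeq2). Libraries without overlap made up 24.3% of all genes tested in the spleen comparison and 24.7% in the NDLN comparison.

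Il15ra, which presents IL-15 to cells that carry Il2rb and Il2rg, followed neither cell type nor tissue. It ranged from 0.132 to 35.5 CPM in the 12 Treg libraries and from 0 to 42 CPM in the 9 Tconv libraries, and 3 libraries, NDLN Tconv replicates 2 and 3 and spleen Tconv replicate 1, held 0 counts. Group means lay between 10.8 ± 7.88 CPM in spleen Tregs and 27.3 ± 23.7 CPM in spleen Tconvs. All groups next to each other in the order of means overlapped, and Il15ra was not called by edgeR in any comparison.

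**Figure D3:**
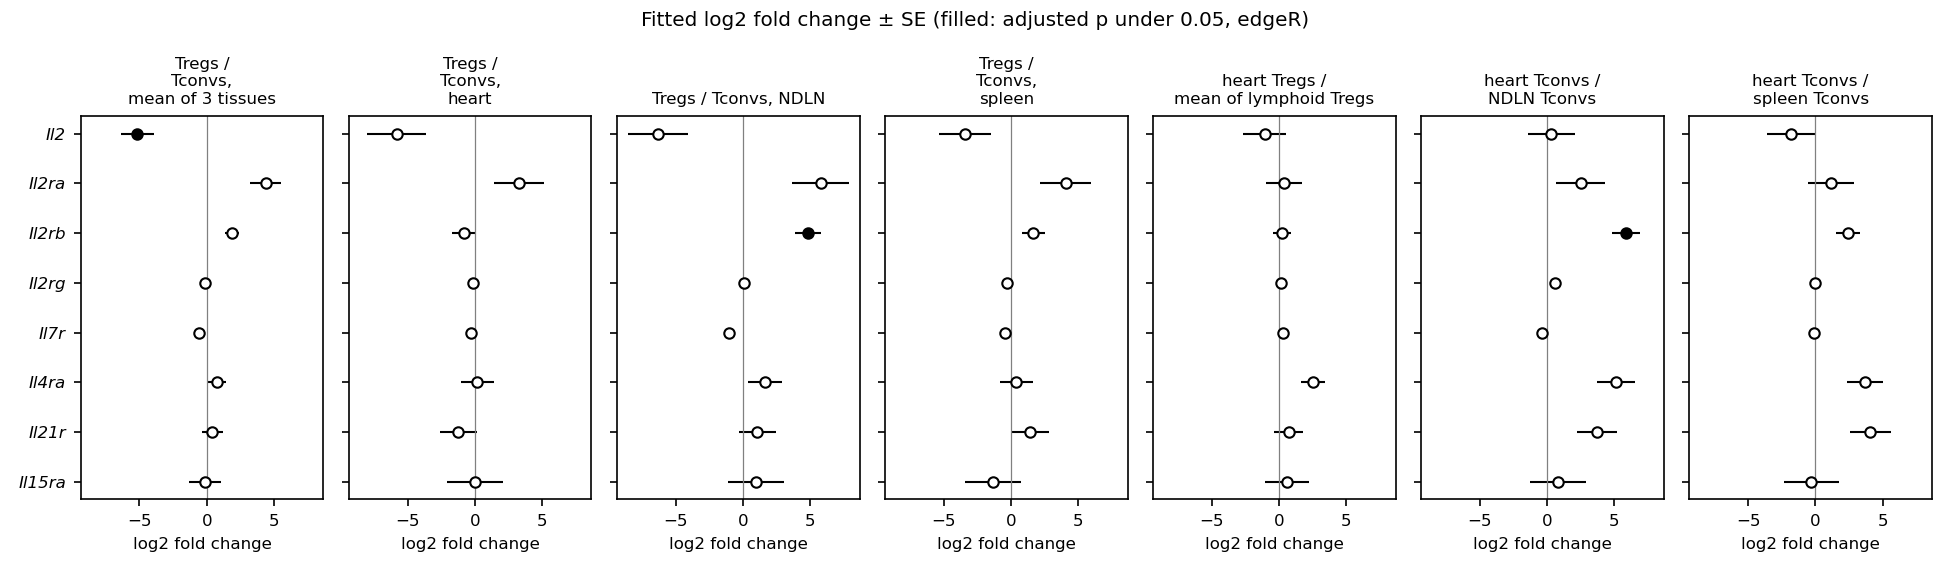
Fitted log2 fold change (horizontal) of each of the 8 genes with its SE as bar, in 7 comparisons; filled points have an edgeR adjusted p under 0.05. The 3 filled points are Il2 in Tregs over Tconvs averaged over tissues (−5.17), Il2rb in NDLN Tregs over NDLN Tconvs (4.85) and Il2rb in heart over NDLN Tconvs (5.88); the points of Il2rg and Il7r have the shortest bars.

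In the remaining comparisons edgeR called 0 of the 8 genes. In heart, Tregs over Tconvs gave 0 calls, with 1 at an unadjusted p under 0.05 (7.81% of all genes), 1 by DESeq2 (Il2) and 0 by limma-voom, where 0.0667% of all genes were called by edgeR. In spleen, there were 0 by each of the 3 tools and 0 at an unadjusted p under 0.05, against 0.06% of all genes by edgeR. Heart over MLN Tregs gave 0 by each of the 3 tools and 0 unadjusted, against 0.0667% of all genes by edgeR. Heart over spleen Tconvs gave 0, with 3 at an unadjusted p under 0.05 (12.5% of all genes), 3 by DESeq2 (Il2rb, Il4ra and Il21r) and 0 by limma-voom. Comparisons with a common group, such as the heart Tconvs set against spleen and NDLN, share its libraries.

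The genes whose log2 CPM most resembled Il2ra over the 21 libraries were Cd86, a costimulatory ligand (Pearson's r = 0.919), Klrg1, a receptor of differentiated T and NK cells (0.905), and Wls, a transporter of Wnt proteins (0.89). For Il2rb they were Rbfa (0.905), Cdk5 (0.881) and the chemokine receptor gene Ccr2 (0.881), and for Il2 they were Tgfbr3 (0.86), Tmem9b (0.842) and Gzmk (0.812). The closest were at 0.911 for Il4ra (Ehmt2), 0.871 for Il15ra (Nudt22), 0.836 for Il21r (Map2k1), 0.787 for Il7r (Pde7a) and 0.774 for Il2rg (Bscl2). The libraries share cell type, tissue and rRNA set, and the genes were picked as the highest among all those tested, so these values describe the patterns only.

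Among the other ligands of the gamma chain family, Il4 and Il21 were lower in Tregs as Il2 was. Of the 5 ligands listed besides Il2 (Il4, Il7, Il9, Il15, Il21), 4 were tested, and in Tregs against Tconvs averaged over the tissues 2 were lower (0.5% of all genes) and 0 higher (1.31%). Il15 did not pass (log2 fold change −3.37, SE 2.03, edgeR adjusted p = 0.549). No fold is given for Il7, which had 0 counts in heart, NDLN and spleen Tregs and in heart Tconvs, and for that reason no median of the 4. Il4, the cytokine of type 2 helper cells, had 19.5, 0.396 and 0.0379 CPM in heart Tregs and 0, 1.88 and 0 CPM in spleen Tregs, and 0 counts in the 6 MLN and NDLN Treg libraries. Heart Tconvs had 1.26, 14.6 and 18 CPM, NDLN Tconvs 42.6, 48.8 and 24.5 CPM and spleen Tconvs 37.5, 76.6 and 27.1 CPM. Heart Treg replicate 1 lay above every heart Tconv library, spleen Treg replicate 2 lay above heart Tconv replicate 1 but below the other 8 Tconv libraries, and the remaining 10 Treg libraries lay below all 9. Il4 was lower in Tregs (adjusted p = 0.0304 in edgeR, 2.68e-06 in DESeq2, 9.99e-05 in limma-voom), also over the 16 libraries with more rRNA (log2 fold change −8.43 against −6.58, adjusted p = 0.0398). The call was lost, at edgeR adjusted p-values up to 0.0768, without any 1 of spleen Treg replicates 1 and 3, NDLN Treg replicates 1 to 3, heart Treg replicate 2, spleen Tconv replicates 2 and 3 or heart Tconv replicates 2 and 3. The Il4 folds rest in part on the 0 counts in NDLN Tregs and are no measure of size.

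Il21, made by follicular helper cells, had 0 counts in all 12 Treg libraries. It had 3.33, 0.041 and 0.0437 CPM in heart Tconvs, 7.39, 80.3 and 2.5 CPM in NDLN Tconvs and 0.0433, 16.3 and 2.19 CPM in spleen Tconvs, so that 3 of the Tconv libraries held only 1 count each. Set against a floor of 3 counts over the 9 heart, NDLN and spleen Treg libraries (0.0141 CPM), it was at least 886-fold lower in Tregs than the Tconv mean of 12.5 CPM. NDLN Tconv replicate 2 held 1924 of the 2609 Tconv counts, and without it the Tconv mean was 3.98 CPM and the bound 283-fold. Il21 was called by all 3 tools (adjusted p = 0.0268 in edgeR, 6.18e-07 in DESeq2, 0.000958 in limma-voom). The edgeR call was lost over the 16 libraries with more rRNA (0.196). It was also lost, at up to 0.0678, without any 1 of the spleen or NDLN Treg libraries, heart Treg replicates 2 and 3, NDLN Tconv replicate 2 or heart Tconv replicate 1.

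Among 12 genes known as targets or feedback inhibitors of STAT5, the transcription factor downstream of the IL-2 receptor, edgeR called 1 higher (1.31% of all genes) and 2 lower (0.5%) in Tregs than in Tconvs averaged over the tissues, and the median log2 fold change of the 12 was 0.33, against 0.04 over all genes. The one that was higher was Cish, an inhibitor of cytokine receptor signalling that STAT5 induces. Cish had 302, 232 and 349 CPM in heart Tregs, 172, 50.9 and 20.5 CPM in MLN Tregs, 47.9, 35.2 and 22.4 CPM in NDLN Tregs and 59.1, 36.3 and 39.8 CPM in spleen Tregs. Heart Tconvs had 136, 190 and 195 CPM, NDLN Tconvs 0.0586, 0.919 and 1.81 CPM and spleen Tconvs 5.02, 18.8 and 11.8 CPM. In each tissue the Treg libraries lay above the Tconv libraries, and within each cell type heart lay above NDLN and spleen. Libraries without overlap made up 12.1% to 12.8% of all genes tested between Tregs and Tconvs of a tissue. Between heart and NDLN or spleen of the same cell type they made up 15.5% to 24.7%. Cish was 6.26-fold higher in Tregs on average (log2 fold change 2.65, SE 0.46, edgeR adjusted p = 0.00373, called in all 18 repeats that left out a library) and in NDLN (5.26, SE 0.90, edgeR adjusted p = 0.0112, called in all 6 and over the 16 libraries with more rRNA at 0.0416, limma-voom 0.087). With only the groups compared in the fit, the average was called (0.00247) and the NDLN difference was not (0.353). The average was not called over the 16 libraries (2.58, 0.114).

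Between tissues, Cish rose in heart Tconvs over NDLN Tconvs (log2 fold change 7.56, SE 1.00, adjusted p = 0.000786 in edgeR, 0.00972 over the 16 libraries, called in all 6 repeats without a library, 0.062 with only the groups compared) and over spleen Tconvs (3.87, SE 0.84, edgeR adjusted p = 0.0389, 0.277 over the 16 libraries and 0.0665 with only the groups compared). The spleen comparison kept its call only without heart Tconv replicate 3 (0.0443), and was lost without any other of the 6 libraries, at edgeR adjusted p-values of 0.0571 to 0.184. In heart Tregs Cish was higher than in the lymphoid Tregs together (2.54, SE 0.55, edgeR adjusted p = 0.0264, limma-voom 0.000157). That call was lost without any 1 of the 3 heart Treg libraries, spleen Treg replicates 2 and 3, NDLN Treg replicates 2 and 3 or MLN Treg replicate 2, at edgeR adjusted p-values of 0.0545 to 0.119, and over the 16 libraries (0.109). Cish and Il2rb had the same order of Tconv groups, heart above spleen above NDLN, each without overlap. Libraries did not overlap for 24.3% of all genes tested between heart and spleen Tconvs and 24.7% between heart and NDLN Tconvs. Spleen and NDLN Tconvs were not compared by a test, and their share was not counted. The difference of Il2rb between heart and spleen Tconvs was not called (edgeR adjusted p = 0.249).

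The genes of the list that were lower in Tregs were Bcl2, which protects cells from apoptosis, and Ccnd3, a cyclin of the G1 phase. Ccnd3 had 48.4, 47.3 and 24.7 CPM in heart Tregs against 120, 161 and 269 CPM in heart Tconvs, 68.7, 65.5 and 68.9 CPM in NDLN Tregs against 170, 98.7 and 161 CPM in NDLN Tconvs, and 76, 52.1 and 40.4 CPM in spleen Tregs against 202, 153 and 356 CPM in spleen Tconvs. The libraries overlapped in none of these tissues, as was so for 12.2% of all genes tested in heart, 12.1% in NDLN and 12.8% in spleen. Its log2 fold change was −1.78 (SE 0.24, edgeR adjusted p = 0.000329), called in all 18 repeats and over the 16 libraries (0.00472). Bcl2 had 6.3, 20.7 and 21.7 CPM in heart Tregs against 71.3, 108 and 101 CPM in heart Tconvs. In NDLN it had 84.9, 64.3 and 151 CPM in Tregs against 127, 28.8 and 153 CPM in Tconvs, which overlapped, and in spleen 47.4, 33.2 and 38 CPM in Tregs against 149, 136 and 346 CPM in Tconvs. Its log2 fold change was −1.66 (SE 0.35, edgeR adjusted p = 0.0171), lost without NDLN Treg replicate 2 (0.0501) or spleen Tconv replicate 3 (0.0608), over the 16 libraries (0.114) and in limma-voom (0.0846).

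**Figure D4:**
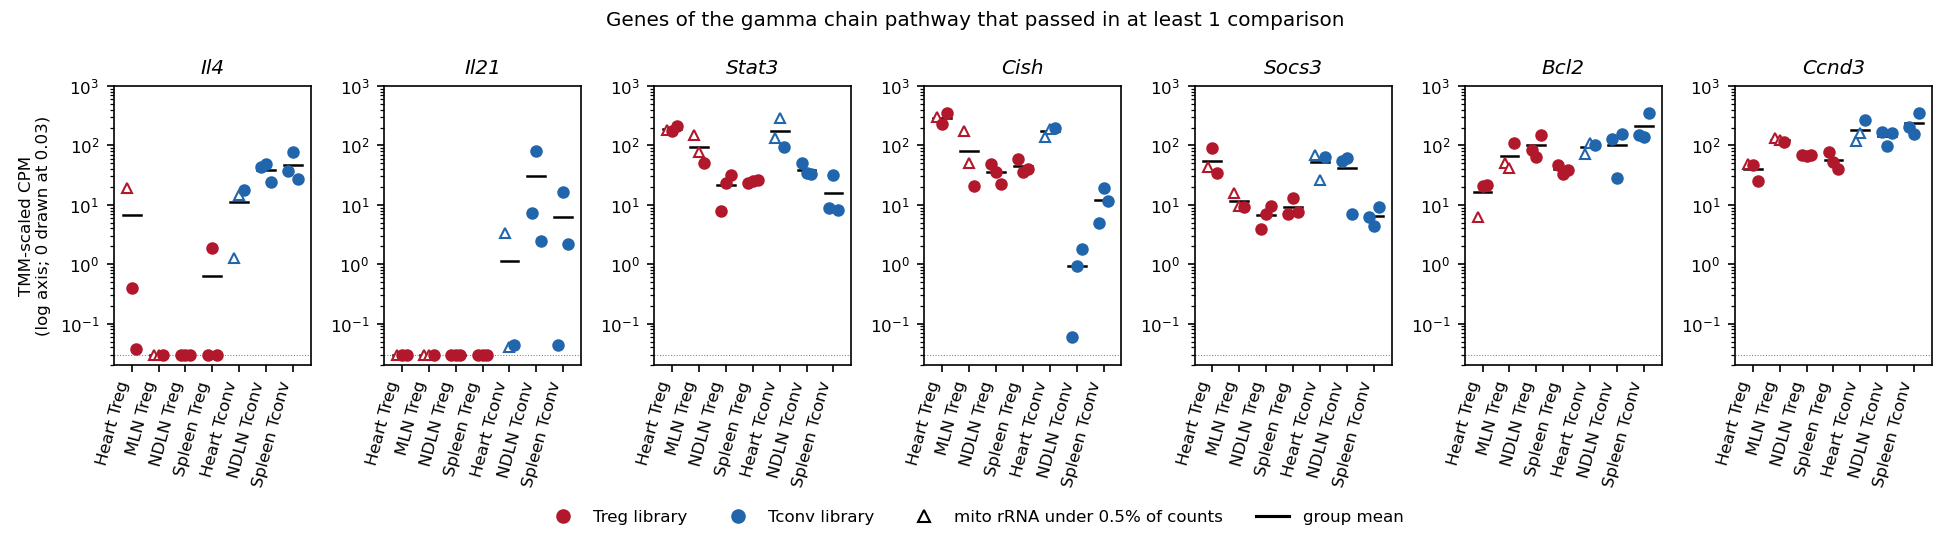
TMM-scaled CPM on log axes of the 7 other genes of the pathway that were called in at least 1 comparison, 1 point per library, with the mean as bar, triangles for the libraries with mitochondrial rRNA under 0.5% and 0 drawn at 0.03. Il4 and Il21 sit at or near 0 in most Treg libraries, Cish is highest in heart Tregs and lowest in NDLN Tconvs, and Ccnd3 is lower in Tregs than in Tconvs of each tissue.

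Of the 6 JAK and STAT genes listed, 0 were called between Tregs and Tconvs on average by edgeR, DESeq2 or limma-voom and 0 had an unadjusted p under 0.05, and the smallest edgeR adjusted p was that of Stat5b (0.369). Stat3, which carries signals of IL-21 among others, differed by tissue. It had 184, 177 and 211 CPM in heart Tregs, 152, 76.3 and 49.7 CPM in MLN Tregs, 7.96, 23.7 and 32.2 CPM in NDLN Tregs and 23.2, 24.8 and 25.8 CPM in spleen Tregs. The log2 fold change of heart Tregs over the lymphoid mean was 2.39 (SE 0.45, edgeR adjusted p = 0.00888; 0.0522 without heart Treg replicate 3 and 0.12 over the 16 libraries), and it was the 1 gene of the 6 called there. It was also called in heart over NDLN Tregs (3.16, SE 0.65, edgeR adjusted p = 0.0263), where the call held without heart Treg replicate 2 (0.0483) and was lost without any other library (up to 0.149), over the 16 libraries (0.105) and with only the groups compared (0.109). Heart Tconvs had 133, 292 and 92.5 CPM of Stat3, against 8.79, 31.4 and 8.18 CPM in spleen Tconvs (3.42, SE 0.66, edgeR adjusted p = 0.0225). That call was lost without heart Tconv replicates 1 or 2 or spleen Tconv replicates 1 or 3 (0.0564 to 0.159), over the 16 libraries (log2 fold change 2.53, adjusted p = 0.777), with only the groups compared (0.11) and in limma-voom (0.0548).

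Of the STAT5 list, Socs3, a feedback inhibitor that STAT3 also induces, was called higher by edgeR with Cish in heart Tregs over the lymphoid mean (2 of 12, where 0.967% of all genes were called). Socs3 had 42.7, 89.5 and 33.9 CPM in heart Tregs, against 15.8, 9.46 and 9.03 CPM in MLN Tregs, 3.95, 6.97 and 9.55 CPM in NDLN Tregs and 7.06, 13.2 and 7.51 CPM in spleen Tregs. The libraries did not overlap (3.99% of all genes), but the call (log2 fold change 2.62, SE 0.63, edgeR adjusted p = 0.0497) was lost without any 1 of the 12 libraries, at 0.0705 to 0.239, over the 16 libraries (0.42) and with only the groups compared (0.068). Il4 was called in the same comparison (edgeR adjusted p = 0.0303), with 442 counts in heart Treg replicate 1 and 10 and 1 in the other heart Treg libraries. Without replicate 1 the log2 fold change was 3.03 against 7.93 and the edgeR adjusted p 0.362, and over the 16 libraries, which lack it too, 3.02 and 0.607. Of the repeats that left out a library, the call held in those without heart Treg replicates 2 or 3 or spleen Treg replicates 1 or 2. These Il4 folds rest in part on 0 counts in all MLN and NDLN Treg libraries and are no measure of size. The fibroblast list was also higher in heart Tregs, where Cish, Stat3, Socs3 and Il4 were called. It summed to 128 to 516 CPM there, with Pdgfra at 0, against 0 to 5.36 CPM in lymphoid Tregs. In heart Tconvs, where Cish and Stat3 were called and Socs3 and Il4 were not, it summed to 1.61 to 286 CPM. In NDLN and spleen Tconvs it summed to 0 to 3.27 CPM, so the ranges overlapped. Mean Il4 was lower in heart Tconvs (11.3 CPM) than in NDLN (38.6 CPM) and spleen Tconvs (47.1 CPM). The part of the fibroblast list in these differences was not tested.

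Of 8 regulators known to act on Il2 or Il7r transcription, edgeR called 0 between Tregs and Tconvs on average, with 3 at an unadjusted p under 0.05 (14.2% of all genes), 3 called by DESeq2 (12.3%) and 1 by limma-voom (3.34%). The smallest edgeR adjusted p-values were those of Ikzf1, a repressor of Il2 (log2 fold change −1.04, SE 0.29, 0.0783), Prdm1, which encodes the repressor Blimp-1 (2.81, SE 0.84, 0.0989), and Gfi1, a repressor of Il7r (2.97, SE 1.17, 0.221). Of 3 further receptor chains listed, 2 were tested, Il9r, which pairs with the gamma chain for IL-9, and Crlf2, which pairs with Il7r for TSLP, and both had an edgeR adjusted p of at least 0.849.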

How the data were processed

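The deposited matrix holds the authors' raw read counts per gene and library. CASAVA 1.8.2, HISAT2, HTSeq 0.6.0 and the build mm10 are named in the submitters' processing notes; the annotation and the strand setting: not given in the sources used here. Per the labels' protocols, libraries were made with a SMARTer kit for very low RNA input. Of 49510 Ensembl IDs, 49326 were found in GENCODE M21. A filter (edgeR filterByExpr, minimum count 10, minimum total 15) left 14996 genes with at least 99.7% of each library's counts. All 21 libraries entered 1 edgeR 4.0.16 fit in R 4.3.3 (TMM, a coefficient per group, robust quasi-likelihood F-test, Benjamini-Hochberg). Each SE comes from the fold change and its F statistic. Levels are TMM-scaled CPM; marker sums are CPM of the library total. DESeq2 1.42.0, limma-voom (limma 3.58.1), other scaling, no filter, a replicate block, the rRNA sets, only the groups compared and each library left out were alternatives. The fit was also run on simulated counts in which only seeded differences between Tregs and Tconvs were present. That run does not cover differences between tissues or the rRNA sets, and its outcome is not reported here.

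The members, pathway lists, marker lists and tests were chosen with earlier results of these data known. The genes named are the members, every listed gene called in a comparison described, otherwise the up to 3 with the smallest adjusted p, and the 3 genes most like each member by Pearson's r of log2 CPM (prior count 2). Each p-value sets a fold change against the spread between libraries, which may be technical. The interval of ± 2 SE comes from the fit and includes that spread, while the floors of 3 counts cover counting error only.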

Additional observations from a re-analysis of the deposited data

How the results depend on the processing

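Of 43 log2 fold changes checked one by one, 29 of the 8 genes (those at an unadjusted p under 0.05 and those described between Tregs and Tconvs) and those of the listed genes called, 0 changed direction under any alternative. Of all 104 log2 fold changes of the 8 genes over 13 comparisons, 40 had the other sign under at least 1 alternative, all with an unadjusted p of 0.356 or more, and 0 of them was called with that sign. Tregs against Tconvs averaged over the tissues called 1 gene of the 8, and 3 without a filter, 3 by DESeq2, 2 by limma-voom, 0 with a replicate block, 0 over the 16 libraries with more mitochondrial rRNA, and 0 to 2 with a library left out. In NDLN it was 1, and 2 without a filter, 4 by DESeq2, 0 with a replicate block, 0 over the 16 libraries, 0 with only the groups compared in the fit, and 0 to 1 with a library left out. Heart over NDLN Tconvs gave 1, and 3 without a filter, 3 by DESeq2, 0 over the 16 libraries, 0 with only the groups compared, and 1 to 2 with a library left out. Heart over spleen Tconvs gave 0, and 1 without a filter and 3 by DESeq2. Tregs over Tconvs gave 0 in heart and in spleen, with 1 without a filter in each and 1 by DESeq2 in heart. Heart Tregs over the lymphoid mean gave 0, and 1 with only the groups compared. DESeq2 called 1 in heart over spleen, heart over NDLN and MLN over NDLN Tregs, where the main count was 0. The heart minus NDLN difference gave 0, and 1 without a filter, 1 by DESeq2 and 0 to 1 with a library left out. Without the filter the edgeR adjusted p of Il2ra on average was 7.36e-24. The causes were not tested.

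Over 63 same-number pairs of groups the correlation of deviations from the group means was between −0.061 and 0.184, and 3 pairs were over 0.1. With 3 libraries a group and a wide spread, this cannot decide whether libraries of the same replicate number came from the same mice. With a replicate block the edgeR adjusted p of Il2 on average was 0.0574 and that of Il2rb in NDLN 0.0549, and Il2rb in heart over NDLN Tconvs stayed called at 0.00593. With only the groups compared, the last 2 had 0.363 and 0.108. Of the listed genes, Il4 (0.0525) and Il21 (0.0561) on average and Il4 (0.124) and Socs3 (0.0809) in heart Tregs over the lymphoid mean lost their calls with the block. With 3 libraries a group and this dispersion, a gene that did not pass is not shown to be equal between groups.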
